A study of Mus musculus with 9 samples.

Results

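Rab genes encode small GTPases that mark the membranes of a cell and steer vesicles between them, and they were examined here in the making of neurons in the mouse embryonic cortex. The members were the genes of the deposited table whose symbol is Rab, a number and at most 1 letter from a to d, which gave 55 of 21210 genes. Genes with a longer name, such as the Rab effectors, Rab7l1 and Rab42-ps, did not match. The table uses the older names Rab1 for Rab1a, Rab6 for Rab6a, Rab7 for Rab7a and Rab9 for Rab9a.

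A Rab protein is switched on when an exchange factor loads it with GTP, recruits effectors to its membrane, and is switched off when a GTPase-activating protein speeds hydrolysis. Each Rab carries lipid tails that carrier proteins cover when the Rab is drawn off the membrane. In neurons Rab3 proteins, with the related Rab27b, sit on synaptic and dense-core vesicles and act with the RIM scaffolds of the presynaptic membrane, while most other Rabs serve routes that every cell has, through the endoplasmic reticulum (ER), the Golgi and the endosomes.

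RNA with a poly-A tail came from cells taken by flow sorting out of C57BL/6 lateral cortex at embryonic day 14.5, with 3 libraries for each of 3 groups. All embryos carried a reporter of Btg2, a gene active in progenitors that will make neurons, and a GFP reporter of Tubb3, a neuronal tubulin. Neurons were the Tubb3 reporter-positive cells, differentiating progenitors were positive for the Btg2 reporter, and proliferating progenitors were negative for it. The titles call the Btg2 reporter red (RFP) while the genotype label calls it GFP, and the groups follow the titles and cell type labels. Each library pooled cells of several embryos from different litters after papain dissociation, with no single embryo behind a value. Replicates are stated to be biological.

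The values are read counts that the authors normalised per library and rounded to whole numbers. Normalised totals ran from 21442620 to 22076409 in neurons, 18420135 to 19077173 in differentiating progenitors and 17531558 to 18201880 in proliferating progenitors, with an estimated 12667311 to 27630049 reads a library behind them. The libraries numbered 1 stood apart from those numbered 2 and 3 of the other groups. Their deviations from the group means over the genes tested had r of -0.64 to -0.545 with those libraries. Among the libraries numbered 1 themselves r was 0.744 to 0.767. Summed over 7 neuronal markers, the values were 167046 to 200181 in neurons, 37734 to 45168 in differentiating progenitors and 2463 to 6988 in proliferating progenitors. Over 8 radial glial markers the sums were 5732 to 7096, 46275 to 69360 and 104199 to 122277 in the same order, and over 6 intermediate progenitor markers 10902 to 14444, 55906 to 67337 and 21230 to 26302. In such sorted pools, fewer cells of a type and less RNA per cell cannot be told apart.

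Of the 55 Rab genes, 48 reached 10 normalised reads in 3 or more libraries and were tested. The other 7 were Rab17, Rab20, Rab25, Rab26, Rab37, Rab38 and Rab44, whose values lay between 0 and 15 in every library. Between neurons and proliferating progenitors, 27 of the 48 rose and 7 fell (limma, Benjamini-Hochberg adjusted p under 0.05), where 32.2% of all genes tested rose and 31.1% fell. Between neurons and differentiating progenitors 24 rose and 6 fell, against 27.6% and 26.4% of all genes. The rises in both neuronal comparisons include Rab40b, which passed the filter on low values through the neurons alone. Between differentiating and proliferating progenitors 7 rose and 3 fell, against 13.8% and 11.1% of all genes. The numbers that replicates share between groups pair the libraries, and with replicate number as a block 14 rose and 9 fell in the last comparison, against 24.0% and 22.0% of all genes. In the blocked fit 32 rose and 9 fell in neurons over proliferating progenitors (38.7% and 39.5% of all genes), and 33 rose and 7 fell in neurons over differentiating progenitors (35.8% and 35.5%). The median log2 change of the 48 was 0.46, 0.34 and 0.09 in these comparisons, beside -0.02, -0.01 and -0.02 over all genes. In libraries 2 and 3 of each group alone, 29 rose and 8 fell, 25 rose and 6 fell, and 11 rose and 5 fell in the same order of comparisons, against 35.1% and 35.5%, 30.6% and 31.0%, and 19.9% and 17.8% of the genes tested there. The comparisons share libraries in pairs and are not independent of each other.

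**Figure D1:**
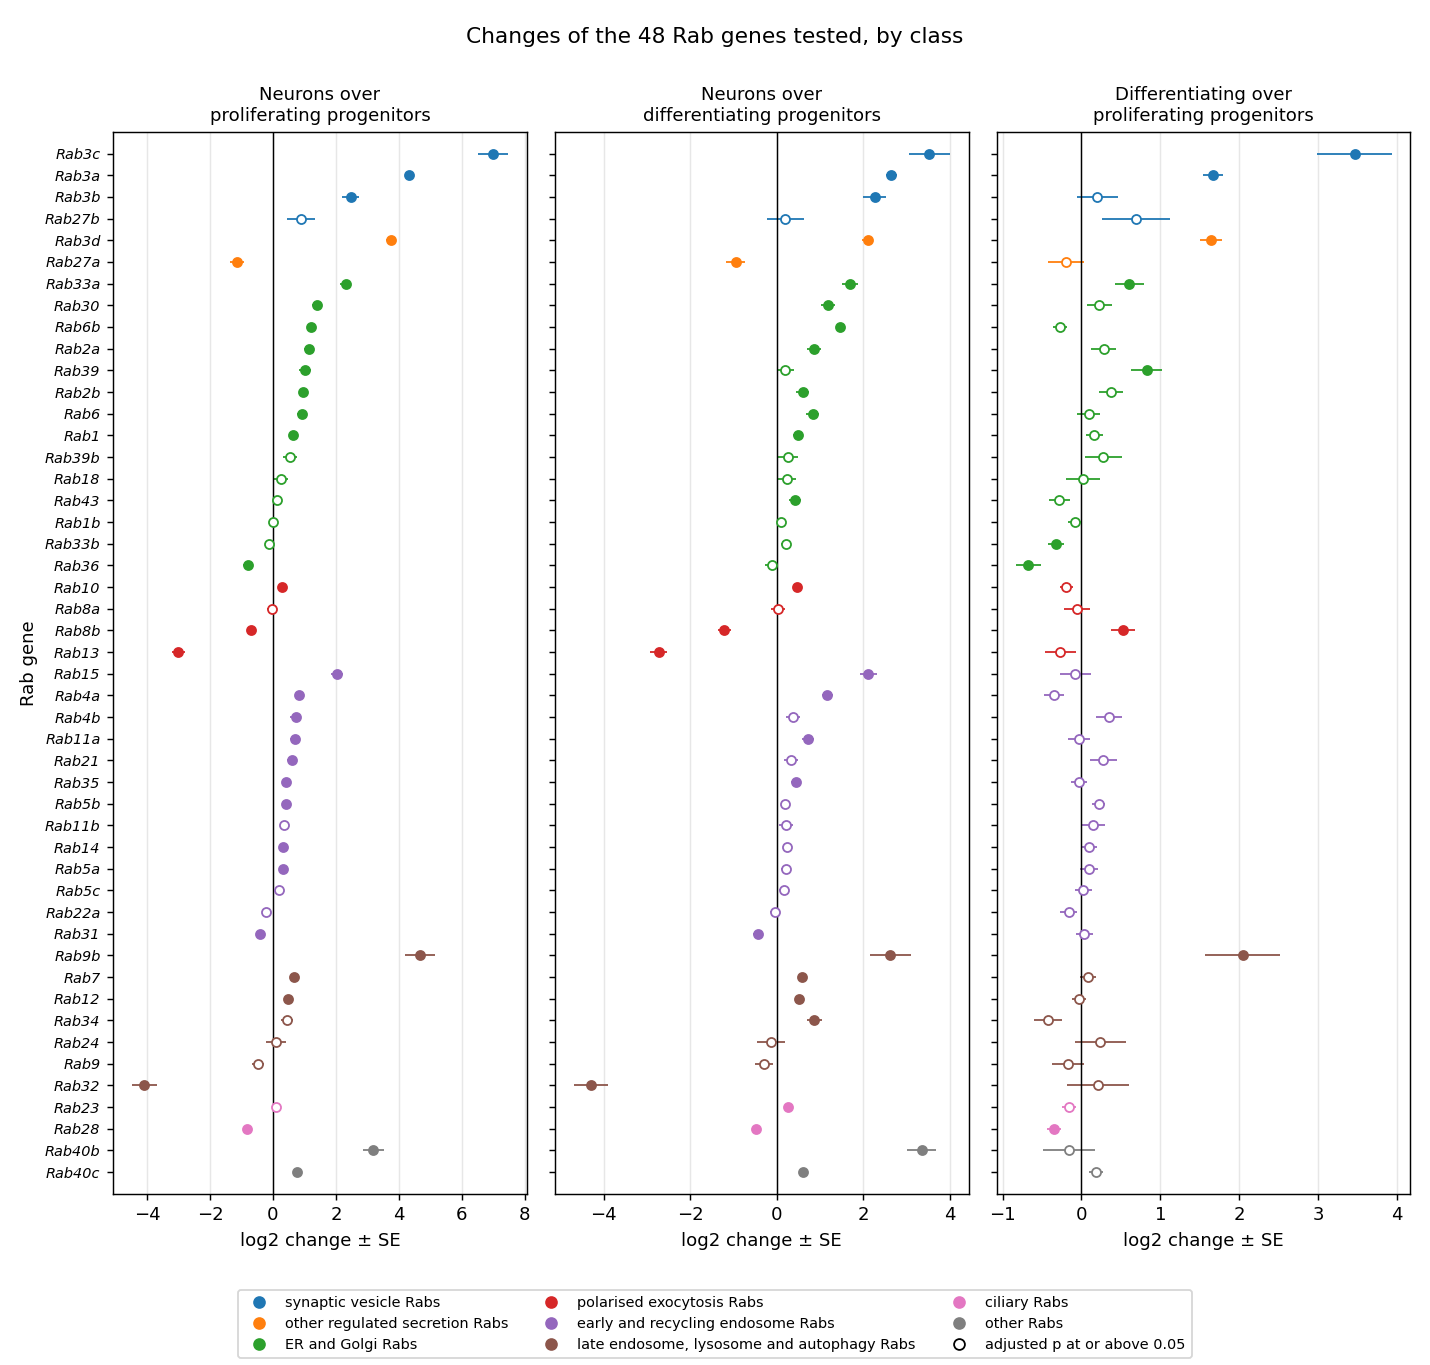
Log2 change with its standard error for the 48 Rab genes tested, grouped and coloured by class, in neurons over proliferating progenitors, neurons over differentiating progenitors and differentiating over proliferating progenitors; filled points passed an adjusted p of 0.05. In the first comparison 27 points are filled on the right of 0 and 7 on the left, and Rab3c lies farthest right at 6.99 while Rab32 lies farthest left at -4.08.

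The Rabs of synaptic vesicles were read first, a class of 4 genes (Rab3a, Rab3b, Rab3c and Rab27b). The 3 Rab3 genes among them rose in neurons over both progenitor groups, and Rab27b passed neither test. Rab3a and Rab3c were also higher in differentiating than in proliferating progenitors. The class median log2 change was 3.39 in neurons over proliferating progenitors, 2.45 in neurons over differentiating progenitors and 1.18 in differentiating over proliferating progenitors.

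Rab3a, the main Rab3 of the adult synapse, had normalised read counts of 4143, 4661 and 4103 in neurons, 621, 840 and 619 in differentiating progenitors and 226, 219 and 201 in proliferating progenitors. The 3 groups did not overlap. Its log2 change was 4.31 ± 0.13 (SE) in neurons over proliferating progenitors (limma adjusted p = 2.07e-08), 2.64 ± 0.13 in neurons over differentiating progenitors (3.51e-07) and 1.67 ± 0.13 in differentiating over proliferating progenitors (5.24e-05).

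Rab3c, another Rab3 form found on synaptic vesicles, had 7397, 6903 and 6445 in neurons, 493, 786 and 555 in differentiating progenitors and 133, 39 and 29 in proliferating progenitors. Every neuronal library was above every progenitor library, and library 1 of proliferating progenitors was well above libraries 2 and 3 of that group. The log2 change was 6.99 ± 0.47 in neurons over proliferating progenitors (limma adjusted p = 1.31e-06), and 7.64 without that library. In differentiating over proliferating progenitors it was 3.46 ± 0.47 (limma adjusted p = 0.000816), and 4.115 without it. The same library also had the highest sum of the neuronal markers in its group, 6988 against 3496 and 2463 in libraries 2 and 3, and the part of this in the Rab3c value was not tested.

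Rab3b, a Rab3 form also known from the pituitary, had far lower values, 194, 270 and 257 in neurons, 66, 53 and 33 in differentiating progenitors and 46, 38 and 43 in proliferating progenitors. Neurons stood above both progenitor groups, which overlapped. Its log2 change was 2.47 ± 0.26 in neurons over proliferating progenitors (limma adjusted p = 3.03e-05) and 0.20 ± 0.26 in differentiating over proliferating progenitors (0.668).

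Rab27b, which acts beside Rab3 in vesicle docking, was near the low end of the table, with 18, 20 and 22 in neurons, 12, 25 and 17 in differentiating progenitors and 15, 14 and 5 in proliferating progenitors. Its neuronal libraries lay within the range of the differentiating progenitors and above the proliferating ones. The log2 change in neurons over proliferating progenitors was 0.89 ± 0.43 (limma adjusted p = 0.0995), and 1.21 (0.045) in replicates 2 and 3 alone.

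The Rabs of other regulated secretion are Rab3d, Rab26, Rab27a and Rab37. Rab3d, best known from the secretory granules of exocrine glands, moved as Rab3a did, with 2193, 1957 and 2093 in neurons, 473, 569 and 425 in differentiating progenitors and 169, 162 and 135 in proliferating progenitors. Its groups did not overlap, and its log2 change was 3.74 ± 0.14 in neurons over proliferating progenitors (limma adjusted p = 3.8e-08), 2.10 ± 0.14 in neurons over differentiating progenitors (1.58e-06) and 1.64 ± 0.14 in differentiating over proliferating progenitors (6.1e-05).

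Rab27a, which drives melanosome transport and the release of lytic granules, went the other way, with 14, 15 and 16 in neurons, 27, 30 and 33 in differentiating progenitors and 40, 35 and 29 in proliferating progenitors. Neurons lay below both progenitor groups, and the progenitor groups overlapped. Its log2 change was -1.15 ± 0.23 in neurons over proliferating progenitors (limma adjusted p = 0.00161) and -0.95 ± 0.23 in neurons over differentiating progenitors (0.0058). Rab26, a secretory granule Rab also placed on synaptic vesicles, had 7, 10 and 11 in neurons, 4, 6 and 9 in differentiating progenitors and 6, 4 and 5 in proliferating progenitors. Rab37, known from mast cell granules, had 2, 3 and 5, then 4, 8 and 2, then 3, 7 and 4 in the same order. Both were too low to be tested, and the groups of Rab37 overlapped throughout.

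**Figure D2:**
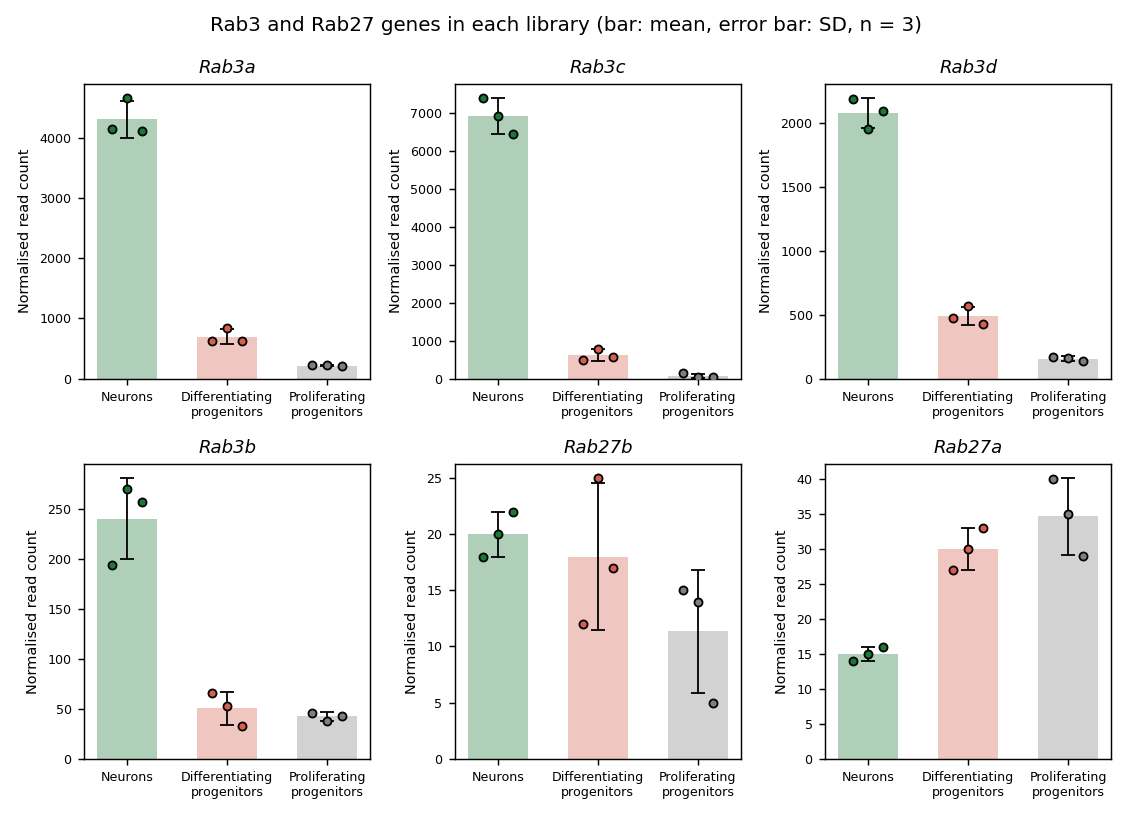
Normalised read counts of the 4 Rab3 and 2 Rab27 genes in each library (points), with the group mean (bar) and SD (error bar, n = 3), neurons at the left, then differentiating and proliferating progenitors. The 4 Rab3 genes have every neuronal library above every progenitor library, Rab27b is at 5 to 25 in every library, with neurons within the range of the differentiating and above the proliferating progenitors, and Rab27a is lowest in neurons at 14 to 16.

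The 4 Rab3 genes rose together, so their promoters are shown. Each stretch below is the 250 bases before a transcription start listed by RefSeq on GRCm38.p6, a newer build than the mm9 of the files, and Rab3a has a pair of listed starts. Capitals mark any match on either strand to 6 motifs. The E-boxes searched were CAGATG, a proneural form, and also CAGCTG. Those of the RE1 element, which REST binds, were its left part TTCAGCACC and its right part, spelled GGACAGC here. The GC box was GGGCGG, and for the TATA box the letters were TATAAA.
Rab3a start 1, chr8:70754453-70754702, plus strand: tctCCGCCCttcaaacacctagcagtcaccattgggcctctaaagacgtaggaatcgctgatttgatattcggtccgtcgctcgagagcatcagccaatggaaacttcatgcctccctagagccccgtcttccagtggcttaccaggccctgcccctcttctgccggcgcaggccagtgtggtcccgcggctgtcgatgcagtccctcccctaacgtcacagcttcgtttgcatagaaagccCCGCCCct
Rab3a start 2, chr8:70754852-70755101, plus strand: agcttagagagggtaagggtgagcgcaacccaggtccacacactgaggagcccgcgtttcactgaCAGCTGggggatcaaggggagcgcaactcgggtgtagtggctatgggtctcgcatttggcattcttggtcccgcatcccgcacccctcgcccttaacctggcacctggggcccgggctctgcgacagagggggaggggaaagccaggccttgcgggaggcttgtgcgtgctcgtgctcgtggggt
Rab3b, chr4:108878820-108879069, plus strand: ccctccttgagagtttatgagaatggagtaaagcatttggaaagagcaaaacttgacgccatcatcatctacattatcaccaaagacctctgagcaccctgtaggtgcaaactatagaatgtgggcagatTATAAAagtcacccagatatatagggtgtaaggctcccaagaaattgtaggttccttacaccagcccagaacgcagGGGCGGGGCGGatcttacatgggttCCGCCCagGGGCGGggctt
Rab3c, chr13:110280207-110280456, minus strand: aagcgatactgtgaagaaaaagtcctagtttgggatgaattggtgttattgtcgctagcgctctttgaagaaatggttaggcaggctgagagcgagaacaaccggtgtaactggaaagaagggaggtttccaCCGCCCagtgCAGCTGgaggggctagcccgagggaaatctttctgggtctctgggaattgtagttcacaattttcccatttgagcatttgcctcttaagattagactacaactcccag
Rab3d, chr9:21918184-21918433, minus strand: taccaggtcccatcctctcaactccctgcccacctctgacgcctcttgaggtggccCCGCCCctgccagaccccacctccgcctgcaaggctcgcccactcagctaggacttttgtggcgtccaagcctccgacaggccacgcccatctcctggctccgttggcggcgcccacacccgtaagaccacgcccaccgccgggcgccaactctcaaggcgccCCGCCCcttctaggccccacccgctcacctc
The stretches of Rab3a start 1, Rab3c and Rab3d hold GC boxes, as does that of Rab3b, which alone of them also holds TATAAA. The E-box CAGCTG occurs at Rab3a start 2 and in Rab3c. CAGATG and both RE1 parts occur in none of the 5 stretches. Guanine and cytosine made up 58.8% and 64.4% at the Rab3a starts, 48.8% in Rab3b, 47.6% in Rab3c and 69.2% in Rab3d, beside a median of 52.4% over all windows. Windows were listed for 45 of the 55 Rab genes. Of those, 77.8% held GGGCGG, against 35.4% of 27025 genes with a window, and 20.0% held CAGCTG, against 14.7%. CAGATG was in 13.3% of the Rab genes with a window and 16.3% of all, TATAAA in 6.7% and 14.3%, the right RE1 part in 2.2% and 6.1%, and the left RE1 part in 0% and 0.3%. A match is a description of the letters only.

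The other Rabs of the routes common to all cells, called general trafficking Rabs here, are those of the ER and Golgi, polarised exocytosis, early and recycling endosomes, and late endosomes, lysosomes and autophagy. They number 42, of which 38 were tested. In neurons over proliferating progenitors 21 rose and 5 fell, against 32.2% and 31.1% of all genes, with a median log2 change of 0.40. Of the 38, 7 had a log2 change of at least 1, as did 3102 of all 15828 genes tested. In neurons over differentiating progenitors 17 rose and 4 fell, against 27.6% and 26.4% of all genes, with a median of 0.29. In differentiating over proliferating progenitors 4 rose and 2 fell, against 13.8% and 11.1%, with a median of 0.06. With replicate number as a block, 26 rose and 7 fell in neurons over proliferating progenitors, against 38.7% and 39.5% of all genes. In the blocked fit 26 rose and 5 fell in neurons over differentiating progenitors, against 35.8% and 35.5% of all genes. In that fit 10 rose and 8 fell in differentiating over proliferating progenitors, against 24.0% and 22.0%. The synaptic vesicle class had 3 of 4 genes called higher in both neuronal comparisons, with medians of 3.39 and 2.45. The classes were not separated gene by gene, since Rab9b of the endosomes changed by 4.67 on the log2 scale, more than Rab3a or Rab3b, and the difference between classes was not tested because the classes were set with earlier results known.

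The smaller rises of the general class depended on how the libraries were scaled. With every library set to the same total, all genes shifted by -0.29 (log2) in neurons over proliferating progenitors, and 24.7% of them rose and 41.7% fell. On that scale 20 Rab genes rose and 11 fell, 14 and 9 of them of the general class. In neurons over differentiating progenitors the shift was -0.21, with 21.4% of all genes higher and 35.3% lower, and 20 Rab genes rose and 6 fell, the calls of Rab2b, Rab23, Rab35 and Rab43 being lost. The rises of Rab5a, Rab5b, Rab10, Rab12, Rab14, Rab21 and Rab35 were then not called in neurons over proliferating progenitors, and Rab1b, Rab9, Rab22a and Rab33b were called lower. The log2 change of Rab10 turned to -0.002 there.

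Shares within the Rab genes do not depend on that scaling. When each value is divided by gene length and summed over the Rab genes of a library, the synaptic vesicle class made up 12.1 ± 0.44% of the sum in neurons, 2.55 ± 0.28% in differentiating progenitors and 0.80 ± 0.08% in proliferating progenitors (SD, n = 3). The other regulated secretion class made up 2.22 ± 0.20%, 0.85 ± 0.05% and 0.36 ± 0.03% in the same order. The general trafficking class made up 82.0 ± 0.53%, 91.8 ± 0.06% and 93.2 ± 0.18%, so its share was lower in neurons although its own sum per kilobase was higher, at 18050 to 19530 in neurons, 13530 to 15380 in differentiating progenitors and 12790 to 14560 in proliferating progenitors. All Rab genes together took 0.339% to 0.347% of the total value in neurons, 0.249% to 0.274% in differentiating progenitors and 0.242% to 0.266% in proliferating progenitors.

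**Figure D3:**
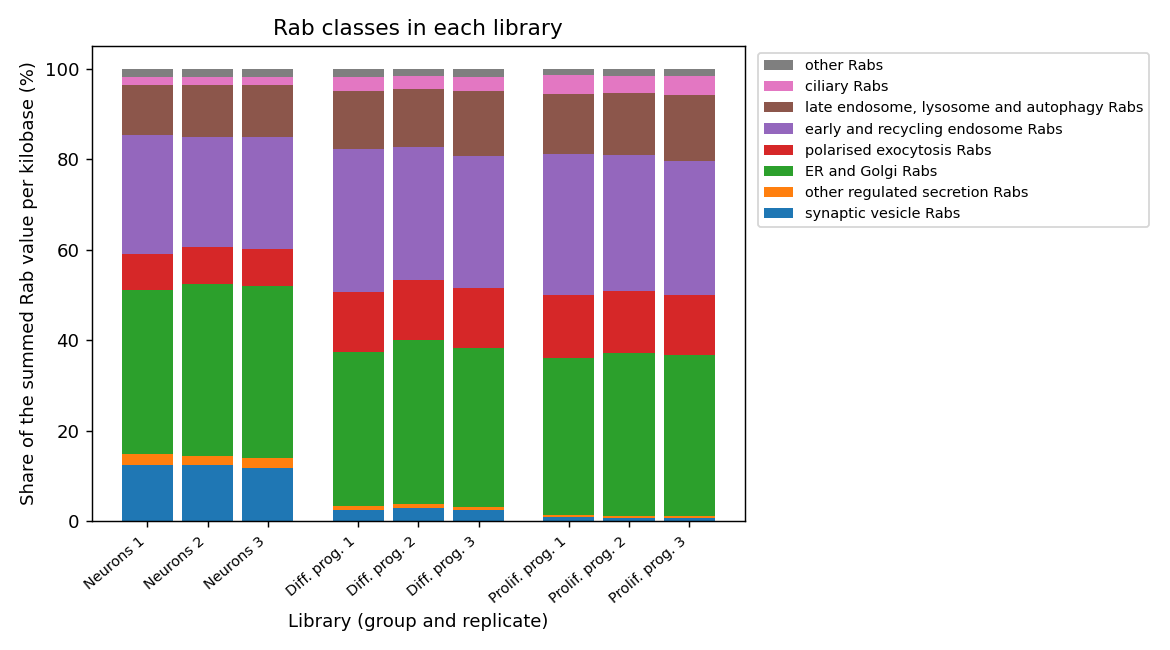
Share of each Rab class (colours) in the summed Rab value per kilobase of each library (bars), neurons at the left, then differentiating and proliferating progenitors. The synaptic vesicle class takes 11.6% to 12.4% of the bar in the 3 neuronal libraries, 2.37% to 2.88% in differentiating progenitors and 0.74% to 0.89% in proliferating progenitors.

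Levels per kilobase gave a different order of genes in each group. In neurons Rab3a had the highest level, 1933 ± 140 per kilobase, with Rab2a next at 1651 ± 206, and Rab6b followed at 1270 ± 53. Rab3a and Rab2a differed by less than their summed SDs, and Rab6b lay close to Rab1b (1243 ± 39) and Rab10 (1202 ± 63). In proliferating progenitors Rab3a ranked 35 of 55 at 96.7 ± 5.8 per kilobase, and Rab1b was highest at 1228 ± 48, above Rab10 at 987 ± 74. Rab3c ranked 10 in neurons, 38 in differentiating progenitors and 45 in proliferating progenitors by level per kilobase.

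In the ER and Golgi class all 14 genes were tested. In neurons over proliferating progenitors Rab1, Rab2a, Rab2b, Rab6, Rab6b, Rab30, Rab33a and Rab39 rose, Rab36 fell, and Rab1b, Rab18, Rab33b, Rab39b and Rab43 did not pass. Of all genes 32.2% rose and 31.1% fell there, and replicate number as a block added Rab18 and Rab39b to the rises. In neurons over differentiating progenitors 8 rose and 0 fell, against 27.6% and 26.4% of all genes. At an unadjusted limma p under 0.05 the class had 8 rises and 0 falls. With replicate number as a block it had 11 and 0, against 35.8% and 35.5% of all genes. By the authors' deposited adjusted p it had 7 and 0. The log2 changes of the 14 ran from -0.12 to 1.70. Rab39 was not among these 8, and Rab43 was, with a log2 change of 0.41 ± 0.13 (limma adjusted p = 0.0265) that was lost without either neuronal library 1 or 2 or differentiating progenitor library 2 or 3, with equal library totals (adjusted p = 0.269) and with equal upper quartiles (0.105).

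Rab33a, which carries Golgi-derived vesicles into growing axons in rat neurons, had 685, 709 and 545 in neurons, 206, 232 and 160 in differentiating progenitors and 154, 123 and 113 in proliferating progenitors. No neuronal library overlapped a progenitor library, and the lowest differentiating library, at 160, was just above the highest proliferating one, at 154. Its log2 change was 2.31 ± 0.19 in neurons over proliferating progenitors (limma adjusted p = 4.36e-06). In differentiating over proliferating progenitors it was 0.61 ± 0.19 (0.0425), a call lost when differentiating progenitor library 1 or 2, neuronal library 1 or 2, or proliferating progenitor library 2 or 3 was left out (adjusted p = 0.0523 to 0.15). It was also lost with equal library totals (0.0623), with equal upper quartiles (0.0662), with no filter (0.0503) and with only the 2 groups compared (0.0774).

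Rab6b, the brain-enriched form of the Rab of retrograde Golgi transport, had 6079, 6222 and 5736 in neurons, 2239, 2261 and 2031 in differentiating progenitors and 2730, 2797 and 2372 in proliferating progenitors. Neurons had more than both progenitor groups, and differentiating progenitors had the least. The log2 change was 1.19 ± 0.09 in neurons over proliferating progenitors (limma adjusted p = 2.31e-06) and 1.47 ± 0.09 in neurons over differentiating progenitors (1.02e-06). In differentiating over proliferating progenitors it was -0.27 ± 0.09 (0.0517). This fall was called with replicate number as a block (limma adjusted p = 0.000964), equal library totals (0.014) and equal upper quartiles (0.0356). It was also called with a filter at 50 (0.047), with 8 added to each value (0.0491) and without proliferating progenitor library 3 (0.0271).

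Rab30, a Golgi Rab, had 400, 417 and 398 in neurons, 165 to 208 in differentiating progenitors and 148, 184 and 130 in proliferating progenitors. Neurons stood apart and the progenitor groups overlapped. The log2 change was 1.40 ± 0.16 in neurons over proliferating progenitors (limma adjusted p = 4.44e-05). Rab36, a Golgi Rab tied to the placing of late endosomes and lysosomes, was the one member of this class that fell, with 241, 202 and 235 in neurons, 272, 215 and 253 in differentiating progenitors and 363, 351 and 475 in proliferating progenitors. Its neurons and differentiating progenitors overlapped, and proliferating progenitors stood above both. The log2 change was -0.80 ± 0.16 in neurons over proliferating progenitors (limma adjusted p = 0.00165) and -0.68 ± 0.16 in differentiating over proliferating progenitors (0.0132), a call lost without differentiating progenitor library 2 (adjusted p = 0.056).

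The polarised exocytosis class holds Rab8a, Rab8b, Rab10 and Rab13, which act between the Golgi or recycling compartments and the plasma membrane. Rab13, known from the transport of junction proteins in epithelia, had 38, 34 and 30 in neurons, 219, 262 and 214 in differentiating progenitors and 218, 346 and 286 in proliferating progenitors. Neurons lay far below both progenitor groups, which overlapped. Its log2 change was -3.00 ± 0.20 in neurons over proliferating progenitors (limma adjusted p = 1.13e-06) and -2.73 ± 0.20 in neurons over differentiating progenitors (3.24e-06).

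Rab8b, the closest relative of Rab8a, was the one Rab gene that was highest in differentiating progenitors by both tests against that group. It had 1732, 1553 and 1482 in neurons, 3507, 4054 and 3489 in differentiating progenitors and 3151, 2561 and 2037 in proliferating progenitors, and the groups did not overlap. The log2 change was -0.68 ± 0.15 in neurons over proliferating progenitors (limma adjusted p = 0.00329), -1.21 ± 0.15 in neurons over differentiating progenitors (0.000115) and 0.53 ± 0.15 in differentiating over proliferating progenitors (0.0316). The last call was lost without differentiating progenitor library 2 or 3, neuronal library 2 or proliferating progenitor library 2 or 3 (adjusted p = 0.051 to 0.116), with equal library totals (0.0513), with equal upper quartiles (0.0559) and with only the 2 groups compared (0.0609). Rab8a had a mean of 1283 ± 167.5 in neurons, 1272 ± 244 in differentiating progenitors and 1313 ± 157 in proliferating progenitors and passed no test. As a share of the summed Rab value per kilobase, the class made up 8.01 ± 0.04% in neurons, 13.3 ± 0.08% in differentiating progenitors and 13.5 ± 0.33% in proliferating progenitors.

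Of the 15 early and recycling endosome genes 13 were tested. In neurons over proliferating progenitors 9 rose and Rab31 fell, against 32.2% and 31.1% of all genes. Those that rose were Rab4a and Rab4b of fast recycling, Rab5a and Rab5b of the early endosome, Rab11a of the recycling endosome, and Rab14, Rab15, Rab21 and Rab35. With replicate number as a block 11 rose and 2 fell, against 38.7% and 39.5% of all genes. Rab5c and Rab11b were added to the rises and Rab22a to the falls. Equal library totals left 4 of the 9 rises of the fit without a block. The authors' deposited adjusted p gave 5 rises and 0 falls, where it called 28.1% of all genes higher and 26.6% lower. The rise of Rab5a (limma adjusted p = 0.035) was also lost with equal upper quartiles and without neuronal library 2 or 3 or proliferating progenitor library 3. In neurons over differentiating progenitors 4 rose (Rab4a, Rab11a, Rab15 and Rab35) and Rab31 fell, against 27.6% and 26.4% of all genes. With replicate number as a block 10 rose, against 35.8% of all genes, with Rab4b, Rab5b, Rab5c, Rab11b, Rab14 and Rab21 added. In differentiating over proliferating progenitors limma called 0, against 13.8% of all genes higher and 11.1% lower. At an unadjusted limma p under 0.05, 1 was higher and 1 lower, and the authors' deposited adjusted p gave 0. There the blocked fit called Rab4b, Rab5b and Rab11b higher and Rab4a and Rab22a lower.

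Rab15, an endosomal Rab first found in brain, had 381, 406 and 432 in neurons, 119, 77 and 88 in differentiating progenitors and 111, 82 and 104 in proliferating progenitors. It stood out from its class, as the neurons were far above both progenitor groups, which overlapped. The log2 change was 2.04 ± 0.19 in neurons over proliferating progenitors (limma adjusted p = 1.31e-05), where the other 8 that rose lay at 0.32 to 0.82. Rab31, which works between the Golgi and endosomes, had 1073, 912 and 1018 in neurons, 1528, 1299 and 1261 in differentiating progenitors and 1377, 1374 and 1220 in proliferating progenitors. Neurons lay below both progenitor groups, and its log2 change was -0.40 ± 0.11 in neurons over proliferating progenitors (limma adjusted p = 0.00838), with 0.066 in the authors' deposited table.

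The late endosome, lysosome and autophagy class had 7 of 9 genes tested. In neurons over proliferating progenitors Rab7, Rab9b and Rab12 rose, Rab32 fell, and Rab9, Rab24 and Rab34 did not pass. Of all genes 32.2% rose and 31.1% fell there. With replicate number as a block, Rab34 was called higher (limma adjusted p = 0.00134) and Rab9 lower (0.000149). Rab9b, a relative of the Rab that returns receptors from late endosomes to the Golgi, had 223, 233 and 191 in neurons, 21, 48 and 39 in differentiating progenitors and 10, 13 and 3 in proliferating progenitors. Its groups did not overlap, and the log2 change was 4.67 ± 0.48 in neurons over proliferating progenitors (limma adjusted p = 2.12e-05) and 2.62 ± 0.48 in neurons over differentiating progenitors (0.00124). In differentiating over proliferating progenitors it was 2.04 ± 0.48 (0.013), a call lost without differentiating progenitor library 2 or 3 (adjusted p = 0.0568 and 0.0502). Rab7, the main Rab of the late endosome, had a mean of 2928 ± 76 in neurons, 1960 ± 116 in differentiating progenitors and 1853 ± 228 in proliferating progenitors.

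Rab32, known from melanosomes and other lysosome-related organelles, had 0, 1 and 0 in neurons, 32, 22 and 19 in differentiating progenitors and 26, 19 and 17 in proliferating progenitors. It was at or near 0 in neurons and low in both progenitor groups, which overlapped. The fitted log2 change was -4.08 ± 0.39 in neurons over proliferating progenitors (limma adjusted p = 1.5e-05), a size that depends on the 1 added to each value, since it was -1.77 with 8 added. Rab24, placed on autophagic membranes, had 589, 1051 and 1035 in neurons, 641, 1122 and 1176 in differentiating progenitors and 564, 927 and 979 in proliferating progenitors, so library 1 was the lowest in each group. Of the Rab24 exon bases, 62.4% overlap Prelid1 on the other strand.

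Markers of microglia, blood vessels, meninges and red blood cells were lower in neurons than in proliferating progenitors, as were Rab13, Rab27a and Rab32. So were the radial glial markers above. Between the progenitor groups Rab13, Rab27a and Rab32 were not called (limma adjusted p = 0.39, 0.617 and 0.782). The sums of those 4 other marker lists were lower in differentiating than in proliferating progenitors. The summed values of 12 microglia and macrophage markers were 28 to 44 in neurons, 125 to 161 in differentiating progenitors and 203 to 301 in proliferating progenitors, and all 6 of them that were tested fell in neurons over proliferating progenitors. Of these markers C1qa was at 0 in each neuronal library, against 5, 15 and 6 in differentiating progenitors and 15, 8 and 4 in proliferating progenitors. For 12 endothelial and mural markers the sums were 105 to 150, 395 to 441 and 778 to 1713 in the same order, with 9 of the 10 tested lower in neurons over proliferating progenitors. For 7 meningeal markers they were 11 to 37, 79 to 124 and 143 to 1480, and for 9 red blood cell genes 193 to 277, 224 to 2075 and 103706 to 258905. For 10 interneuron and ventral lineage markers, of which 9 of 9 tested rose in neurons over proliferating progenitors as the Rab3 genes did, they were 8099 to 9216, 500 to 2981 and 169 to 1076. The part of these cells in the Rab values was not tested.

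Rab23, a ciliary Rab that restrains Hedgehog signalling, had a mean of 1156 ± 76 in neurons, 961 ± 81 in differentiating progenitors and 1072 ± 13 in proliferating progenitors. It passed only in neurons over differentiating progenitors, with a log2 change of 0.27 ± 0.09 (limma adjusted p = 0.032) that was lost without neuronal library 1 or 2 or differentiating progenitor library 2 or 3. Rab28, the other ciliary Rab, known from photoreceptor cilia, was the one Rab gene that fell at both steps, with 422, 477 and 474 in neurons, 608, 649 and 654 in differentiating progenitors and 815, 833 and 780 in proliferating progenitors. The groups did not overlap. Its log2 change was -0.82 ± 0.09 in neurons over proliferating progenitors (limma adjusted p = 3.36e-05), -0.48 ± 0.09 in neurons over differentiating progenitors (0.00154) and -0.35 ± 0.09 in differentiating over proliferating progenitors (0.0215). The last call was lost without any one of differentiating progenitor libraries 1, 2 and 3 or proliferating progenitor libraries 1 and 2 (adjusted p = 0.0522 to 0.0775), and the adjusted p of the authors' deposited table was 0.35.

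**Figure D4:**
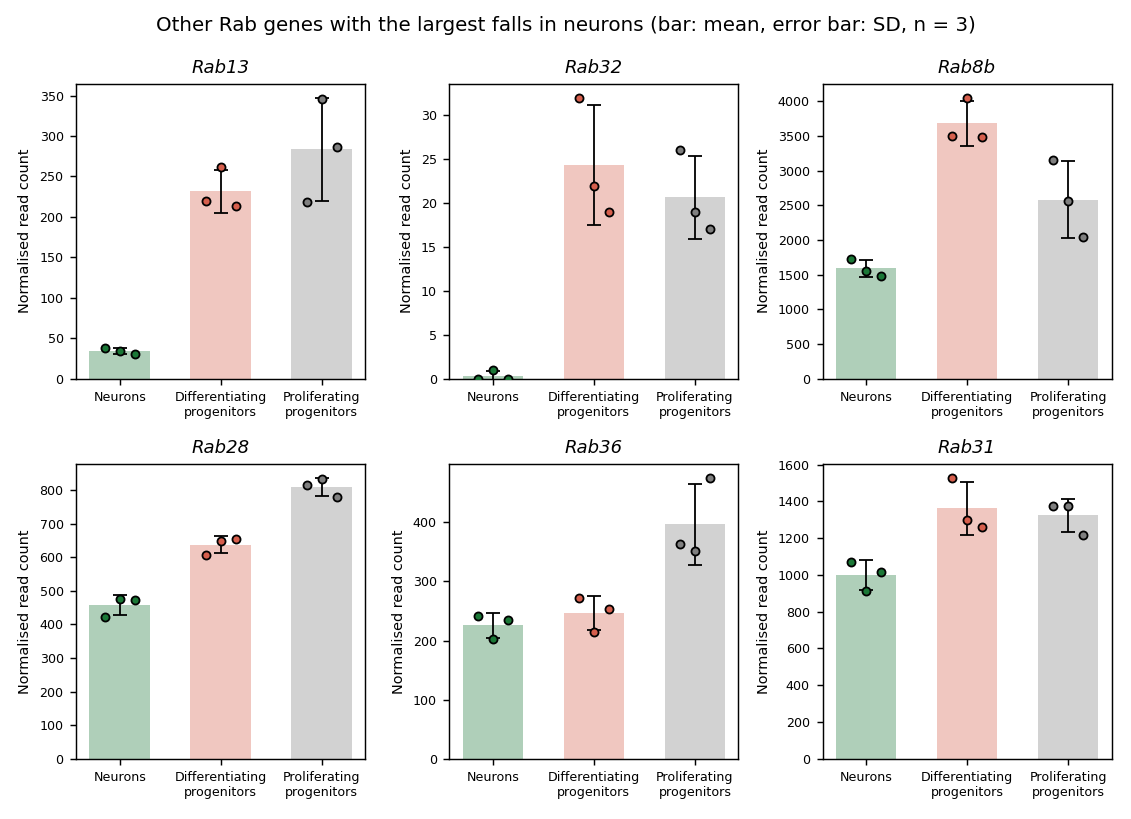
Normalised read counts of the 6 Rab genes outside the secretory classes with the largest falls in neurons over proliferating progenitors, in each library (points), with the group mean (bar) and SD (error bar, n = 3), neurons at the left. Rab13, at 30 to 38 in neurons, and Rab32, at 0 to 1, lie below every progenitor library there, Rab8b is highest in differentiating progenitors at 3489 to 4054, and Rab28 is in 3 separate ranges, 422 to 477 in neurons being the lowest.

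Rab40b, which joins a ubiquitin ligase through a SOCS box, had 40, 47 and 47 in neurons, 2, 5 and 4 in differentiating progenitors and 4, 4 and 4 in proliferating progenitors. It passed the filter on low values through the neurons alone and so had to differ, and its log2 change of 3.19 ± 0.33 in neurons over proliferating progenitors is a description. Rab40c, of the same family, had a mean of 1242 ± 61 in neurons, 820 ± 14 in differentiating progenitors and 724 ± 59 in proliferating progenitors, and rose in neurons over both progenitor groups (limma adjusted p = 4.25e-05 and 0.000339).

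Rab genes with the same number often changed by different amounts, and in the fit without a block no pair was called in opposite directions between neurons and proliferating progenitors. Other settings gave opposite calls. Rab9b was called higher and Rab9 lower with replicate number as a block, in replicates 2 and 3 alone, with equal library totals, with equal upper quartiles and without neuronal library 1. Equal library totals also gave Rab1 higher beside Rab1b lower and Rab33a higher beside Rab33b lower, and replicates 2 and 3 alone gave Rab27b higher beside Rab27a lower. Of the summed Rab33 level per kilobase, Rab33a took 78.1 ± 1.9% in neurons, 55.9 ± 4.4% in differentiating progenitors and 39.8 ± 2.2% in proliferating progenitors (SD, n = 3). Of the summed Rab9 level, Rab9b took 18.9 ± 2.3%, 3.17 ± 1.5% and 0.65 ± 0.39% in the same order. Of the Rab3 level, Rab3c took 23.7 ± 1.5%, 13.3 ± 1.3% and 4.67 ± 3.6%, while Rab3a held 59.0 ± 2.2%, 60.9 ± 0.92% and 63.3 ± 3.1%. For the Rab5 trio the shares stayed within narrow ranges, with Rab5c at 53.1 ± 2.5% in neurons, 53.7 ± 1.6% in differentiating progenitors and 55.9 ± 1.5% in proliferating progenitors.

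The call patterns over both steps are a list of genes and not a trait of the family, since the share of all genes with each pattern was not counted. In differentiating over proliferating progenitors 7 of the 48 rose, where 13.8% of all genes did. The 5 genes that rose at each step, from proliferating to differentiating progenitors and from there to neurons, were Rab3a, Rab3c, Rab3d, Rab9b and Rab33a. With replicate number as a block, Rab2a, Rab2b, Rab4b, Rab5b, Rab11b and Rab40c were also called higher at both steps. That fit called Rab4a, Rab6b, Rab10, Rab33b, Rab34 and Rab43 lower in differentiating progenitors than in both other groups, where 0 were without a block. The 10 not called in any comparison, of the 48 tested, were Rab1b, Rab5c, Rab8a, Rab9, Rab11b, Rab18, Rab22a, Rab24, Rab27b and Rab39b. With replicate number as a block, Rab5c, Rab11b, Rab18 and Rab39b were called higher, and Rab9 and Rab22a lower, in neurons over proliferating progenitors. In the blocked fit Rab5c, Rab11b, Rab18 and Rab39b were also called higher and Rab9 lower in neurons over differentiating progenitors. It called Rab11b and Rab24 higher and Rab22a lower in differentiating over proliferating progenitors, and Rab24 was called there in replicates 2 and 3 alone too (limma adjusted p = 0.0285).

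Proteins that load, release and recycle Rabs were read as 4 lists. The Rab3 and Rab27 partners had 16 of 20 genes tested. The list holds exchange factors, effectors and GTPase-activating proteins of the secretory Rabs, with relatives such as Rims3 and Rims4, which are in the counts. In neurons over proliferating progenitors 9 rose, Rph3a among them, and 3 fell, against 32.2% and 31.1% of all genes. The median log2 change was 0.54. Rph3a, the Rab3 effector rabphilin, had 862, 1309 and 1305 in neurons, 5, 7 and 12 in differentiating progenitors and 3, 8 and 2 in proliferating progenitors. It would not have passed the filter on low values without the neurons, so its log2 change of 7.90 ± 0.45 in neurons over proliferating progenitors is a description. Rims1, a scaffold of the presynaptic active zone that binds Rab3, had 600, 769 and 718 in neurons, 47, 60 and 54 in differentiating progenitors and 32, 47 and 47 in proliferating progenitors. Neither gene was called between differentiating and proliferating progenitors, where Rab3a and Rab3c were called higher, and this difference between genes was not tested. With replicate number as a block, Rims1 was called higher there (limma adjusted p = 0.0432). Rims4 (log2 change 4.15 ± 0.29) and Dmxl2, which binds the Rab3 regulators on synaptic vesicles (2.68 ± 0.11), also rose.

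Among the same partners Sytl5, a Rab27 effector, had 11, 5 and 18 in neurons, 113, 247 and 191 in differentiating progenitors and 118, 160 and 138 in proliferating progenitors, a log2 change of -3.64 ± 0.43 in neurons over proliferating progenitors (limma adjusted p = 5.7e-05). Rph3al, a Rab27 effector of endocrine cells, fell by 2.54 ± 0.28 on the log2 scale, and Rims3, a short RIM form, fell by 0.79 ± 0.17. Sytl5 and Rph3al were low in the group in which Rab27a was low, but others of the list were not. Myrip rose, with 35, 45 and 37 in neurons and 14, 13 and 12 in proliferating progenitors (log2 change 1.51 ± 0.37, limma adjusted p = 0.00611). Sytl1 and Unc13d were not called (0.98 and 0.482).

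The 7 genes of Rab prenylation and recycling read here were all tested. In neurons over proliferating progenitors 3 rose and 3 fell, against 32.2% and 31.1% of all genes. Gdi2, which draws inactive Rabs off membranes, had 4255, 4523 and 4686 in neurons, 4518, 4901 and 4478 in differentiating progenitors and 7010, 7940 and 6604 in proliferating progenitors, a log2 change of -0.68 ± 0.09 (limma adjusted p = 0.000121). Neurons and differentiating progenitors overlapped, and proliferating progenitors stood above both. Rabif, Rabac1 and Rabggta rose by log2 changes of 0.60 to 0.66, while Chml, a Rab escort protein, fell by 1.40 ± 0.22 on the log2 scale and Rabggtb, a subunit of the Rab geranylgeranyl transferase whose other subunit is Rabggta, fell by 0.87 ± 0.23.

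The 25 endosomal effectors and exchange factors were all tested. In neurons over proliferating progenitors 14 rose and 6 fell, against 32.2% and 31.1% of all genes. With replicate number as a block 15 rose and 6 fell, against 38.7% and 39.5% of all genes. Rab11fip2, Rab11fip3 and Rab11fip4, which tie Rab11 to motors, rose by log2 changes of 1.58 ± 0.13, 0.97 ± 0.08 and 1.64 ± 0.09, and Myo5a, a motor of recycling vesicles, by 1.19 ± 0.08. Those that fell most clearly were Appl2, an effector of Rab5, at -1.92 ± 0.14, Rin2 and Rin3, exchange factors of Rab5, at -1.84 ± 0.17 and -1.51 ± 0.26, and Rilpl1, at -1.50 ± 0.13.

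The Golgi and exocytic list had 25 entries for 23 genes, since Mical3 and Dennd5b each have a pair of entries. In neurons over proliferating progenitors 12 entries rose and 5 fell, against 32.2% and 31.1% of all genes. With replicate number as a block 15 entries rose and 6 fell, against 38.7% and 39.5% of all genes. Rabgap1l, a GTPase-activating protein, had 5473, 6342 and 6030 in neurons, 902, 1309 and 1181 in differentiating progenitors and 474, 497 and 424 in proliferating progenitors, and changed by 3.68 ± 0.14 on the log2 scale (limma adjusted p = 4.63e-08). Tbc1d4, a GTPase-activating protein for Rab10 and Rab8a among others, had 182, 205 and 188 in neurons, 1374, 1125 and 1129 in differentiating progenitors and 1674, 1954 and 1930 in proliferating progenitors, a log2 change of -3.27 ± 0.11 (3.08e-08). Its relative Tbc1d1 fell by 0.49 ± 0.08 on the log2 scale. Dennd4b and Dennd4c, of a family of exchange factors for Rab10, fell by 1.25 ± 0.21 and 0.61 ± 0.13. Bicd1, an adaptor of Rab6 to dynein, rose by 1.74 ± 0.12, Micall1 by 1.22 ± 0.07 and the Mical3 entries by 1.887 ± 0.097 and 1.799 ± 0.207. The Dennd5b entries went opposite ways, at 0.62 ± 0.07 for the entry of 2054 to 2169 in neurons and -1.05 ± 0.41 for that of 12 to 16, and the gene is uncertain.

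**Figure D5:**
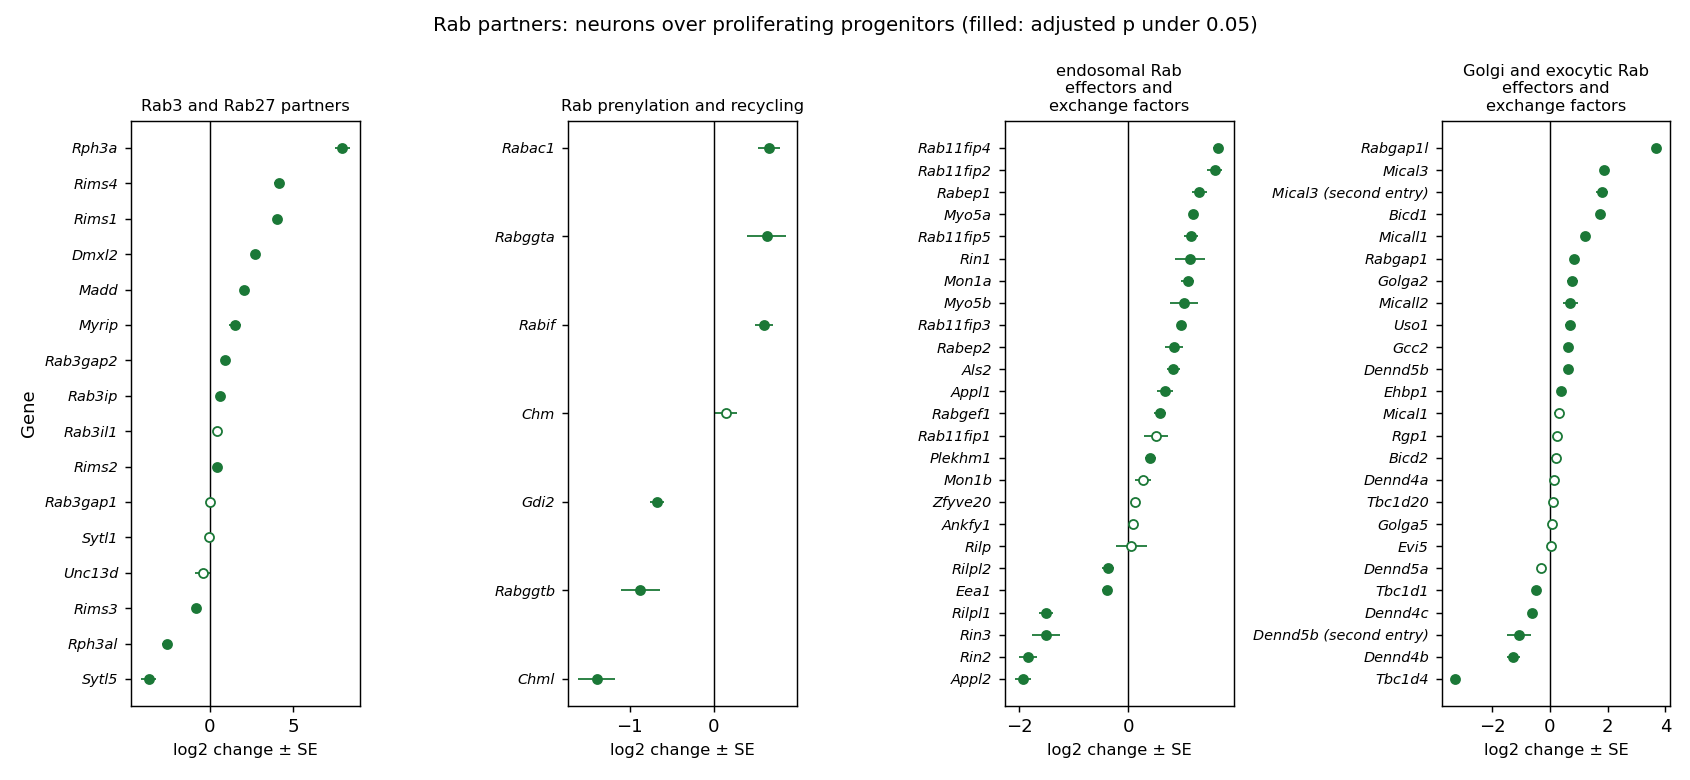
Log2 change with its standard error in neurons over proliferating progenitors for the genes tested in the 4 partner lists, 1 panel a list; filled points passed an adjusted p of 0.05. Rph3a at 7.90 and Rabgap1l at 3.68 lead their panels, Gdi2 lies left of 0 at -0.68, and Tbc1d4 is lowest in the Golgi and exocytic panel at -3.27. Rph3a would not have passed the filter on low values without the neurons.

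Reads of some Rab genes may be shared with other genes. In GENCODE M21, over 10% of the exon bases of 8 Rab genes overlap another gene, 6 of them on the other strand, and whether the counting used strand is not stated in the labels. Apart from Rab24 these were Rab2b (59.3%, other strand), Rab43 (75.4%, same strand), Rab4b (65.0%, same strand), Rab20, Rab6, Rab33b and Rab39b. Rab5a, Rab7, Rab9b and Rab11b have a named pseudogene. The counts of these genes are uncertain to that extent, and Rab9b alone among them is in a list of the largest changes above.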

How the data were processed

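The table that the authors deposited gives every gene of Ensembl 61 (per the file headers) a score in each library, a read count that was normalised and rounded to a whole number. The submitters' processing notes name build mm9, DESeq 1.8.1, CASAVA 1.8.0, bedtools 2.11 and BWA, without the step each served. Other deposited columns hold the authors' fold, a ratio of group means, their adjusted p-value by comparison, and the length of each gene, which gave the levels per kilobase. What 1 read is worth was estimated per library from the small values, not exactly, so no count model was run.

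Differences were tested on log2(value + 1), which understates the changes of low genes, by limma 3.58.1 (R 4.3.3) with its trend option. The 3 group means were fitted to all 9 libraries together, leaving 6 residual degrees of freedom. A filter kept 15828 genes that reached 10 in 3 or more libraries, and Benjamini-Hochberg adjusted p-values over all of these were called under 0.05. Highest in differentiating progenitors means called in the same direction in both comparisons with that group. The fit was tested on simulated data. Python 3.11.15, numpy 2.4.6, pandas 2.3.3 and matplotlib 3.10.9 did the rest.

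Libraries of the same replicate number deviated together from their group means, so the numbers pair the libraries. The r was 0.507 to 0.767 over the 9 pairs and -0.64 to 0.428 over other pairs. The blocked fit, with 4 residual degrees of freedom, is given beside many of the counts and genes of the report that it changes.

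The Rab genes, their classes and the partner lists were chosen with earlier results of these data known. Library values are given for every secretory Rab, the 6 other Rab genes that rose most and the 6 that fell most in neurons over proliferating progenitors, and those highest in differentiating progenitors. For each partner list, up to 4 called genes in each direction with the smallest adjusted p are named. One item is not reported here, and its list is counted without it. Other genes are named, by values seen, to complete a class or count. Alternatives were the block, added values of 0.5 and 8, no filter and a filter at 50, equal library totals, equal upper quartiles, each library left out, replicates 2 and 3 alone, only the groups compared, and the authors' adjusted p. Promoter stretches came from RefSeq on GRCm38.p6, and exon overlaps from GENCODE M21.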

Additional observations from a re-analysis of the deposited data

How the results depend on the processing

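Counts of Rab genes were recomputed under each alternative, and replicate pairing entered as a block. With replicate number as a block, 14 Rab genes rose and 9 fell in differentiating over proliferating progenitors, against 7 and 3 without it, where 24.0% of all genes rose and 22.0% fell, and the counts in neurons over both progenitor groups stayed within 1.5 times of theirs. With replicates 2 and 3 alone these were 11 and 5, where 19.9% and 17.8% of the genes tested rose and fell, and Rab40b could not be fitted there because it failed the filter. With equal library totals 6 fell in differentiating over proliferating progenitors, against 14.2% of all genes. On that scale 11 fell in neurons over proliferating progenitors, against 41.7%, and the shift of all genes stands beside the general trafficking counts. Equal upper quartiles shifted all genes by -0.13 (log2) in neurons over proliferating progenitors. With them 6 fell in differentiating over proliferating progenitors, against 12.6% of all genes. The authors' deposited adjusted p gave 1 fall in that comparison.

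Leaving out each library in turn gave 24 to 29 rises and 7 to 8 falls in neurons over proliferating progenitors, and 21 to 25 rises and 6 falls in neurons over differentiating progenitors. In differentiating over proliferating progenitors it gave 3 to 8 rises and 1 to 3 falls. Shares over all genes are not given for these fits, so the counts cannot be told apart from shifts in the calls of all genes. The rises were 3 without differentiating progenitor library 2 and 4 without library 3, and the falls were 1 without any one of the 3 differentiating progenitor libraries or of proliferating progenitor libraries 1 and 2. The cause of these changes was not tested. For the 18 tested Rab genes given with library values by the rule above, 965 values stayed on their side of the threshold. Of the rest, 29 lost a call, 7 gained one and 0 changed sign while called. Rab24 is not among the 18, and its gained calls are given above. Among the 965, 11 called in neither fit changed sign, in Rab3b, Rab15, Rab27b, Rab31 and Rab40b. Values near 10 or below, as for Rab27b and Rab32, limit what can be told at this depth.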
